A study of Homo sapiens with 6 samples.

Results

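The genes described here encode proteins that carry, take up, store or release iron and heme. They are the iron carrier transferrin (TF), its receptors TFRC and TFR2, the receptor partner HFE, the importer SLC11A2, the exporter SLC40A1, the ferritin chains FTL and FTH1, the copper ferroxidase ceruloplasmin (CP) and the heme carrier hemopexin (HPX). These 10 genes were listed by name, and every probe set carrying 1 of these symbols in the platform annotation was used. Of the 10 genes 9 were measured, by 40 of the 49293 probe sets tested in all, and FTH1 is not analysed here. The arrays were 1-colour oligonucleotide arrays of Huh7 cells, an established human hepatocellular carcinoma line, harvested in logarithmic growth. There were 3 arrays labelled KCa3.1 silenced, also called a KCa3.1 knockdown in the labels, and 3 arrays of control Huh7 cells. The labels give neither the silencing agent nor what the control cells received, and they do not say whether the 3 arrays of a group are separate cultures. The spread behind each p-value is that of these arrays and may be technical. The question was how silencing the potassium channel KCa3.1 alters transcript levels.

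Iron travels in plasma bound to transferrin, and cells take it up when transferrin binds TFRC, the receptor of most dividing cells, and is drawn into endosomes, where SLC11A2 moves the iron into the cytosol. The liver holds a second receptor, TFR2, which with HFE senses transferrin-bound iron and helps set the level of hepcidin, the hormone that blocks export through SLC40A1 (ferroportin). Ferritin stores iron inside the cell, ceruloplasmin oxidises iron as it leaves, and hemopexin clears free heme from plasma. Iron-regulatory proteins bind a hairpin called the iron-responsive element: near the start of the ferritin and ferroportin messages it holds back translation, and in the tail of the TFRC message it slows decay.

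A stretch of FTL with the loop of this hairpin is shown because FTL is the stored-iron member. Its control acts largely on translation, a step that arrays of RNA do not read. The stretch lies at bases 28 to 50 of the message, at chr19:48965336-48965358 on the plus strand of GRCh38.p14 (RefSeq). It is written as DNA with the loop of 6 bases in capitals. The sequence available ended at base 50, so the stretch stops there and does not show the whole element.

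FTL iron-responsive element: tcttgcttcaaCAGTGTttggac

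A search for CAGTGN flanked by 5 bases on each side that can pair, G with T included, found such a loop in the first 50 bases after the start in 18 of 35116 RefSeq promoter windows (0.051%), and in 1 of the 11 windows of the members. Below stand the windows of the 2 members that rose, TFRC and HPX, from 250 bases before to 50 after the start, on the minus strand at chr3:196082041-196082340 and chr11:6440938-6441237 of GRCh38.p14. Capitals mark ACGTG, searched on both strands. It is 1 form of the core of the hypoxia response element, and the other form, GCGTG, is not marked.

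TFRC promoter: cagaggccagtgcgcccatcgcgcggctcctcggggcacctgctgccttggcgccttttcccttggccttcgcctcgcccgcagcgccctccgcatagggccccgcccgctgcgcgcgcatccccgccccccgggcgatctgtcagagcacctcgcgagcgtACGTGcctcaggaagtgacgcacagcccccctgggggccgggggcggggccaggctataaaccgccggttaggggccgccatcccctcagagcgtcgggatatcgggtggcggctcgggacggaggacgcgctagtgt

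HPX promoter: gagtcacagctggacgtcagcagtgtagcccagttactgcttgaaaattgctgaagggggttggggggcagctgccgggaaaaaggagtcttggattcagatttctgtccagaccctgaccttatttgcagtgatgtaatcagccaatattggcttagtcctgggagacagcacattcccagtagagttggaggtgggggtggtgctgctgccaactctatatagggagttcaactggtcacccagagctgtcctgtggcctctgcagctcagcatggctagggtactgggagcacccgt

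ACGTG stood at position -88 from the start in TFRC and was not among the letters of the HPX window. It also occurred in a window of FTL, HFE and TF, 4 of the 11 member windows, and in 21.4% of all windows. The TF window at chr3:133746143-133746442 did not hold it. Windows with only GCGTG are not in these counts. Either form occurred in 48.4% of all windows. Of the 10 genes 7 had a window in the table. TFR2 and CP, the members that fell, and FTH1 had none, so members that rose and fell cannot be compared. These matches are descriptions of sequence and not sites of binding.

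All values below are log2 values that the authors centred per probe set, so a 0 is the probe set's own baseline, how strongly a gene was expressed is unknown, and values of different genes cannot be ranked as levels. Differences are given as arrays labelled silenced minus control arrays. KCNN4, the gene of KCa3.1, had -0.055, 0.089 and 0.011 in the arrays labelled silenced and -0.006, 0.126 and -0.073 in the control arrays. The values overlapped, and the difference of -3e-04 had a 95% interval of -0.157 to 0.156 (limma, adjusted p = 1). All 3 probe sets of KCNN4 end in _s_at or _x_at, a mark of probes that also match other transcripts, so its value is uncertain. A lower level of the target transcript was thus not seen, and every direction below is between arrays as labelled. Of 18132 genes 2418 passed the test (13.3%), 1295 higher (7.14%) and 1123 lower (6.19%). In a bulk sample, fewer cells of a kind and less RNA per cell cannot be told apart.

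Of the 9 measured genes, 2 rose (TFRC and HPX), 2 fell (TFR2 and CP) and 5 did not pass the test at an adjusted p under 0.05. The 4 genes that passed are 44.4% of the members, beside 13.3% of all genes. The members and the lists below were chosen with earlier results of these data known. Shares set beside those of all genes, here and below, are therefore descriptions and not tests. The receptors for transferrin moved in opposite directions: TFRC was 1.57-fold higher and TFR2 was 1.93-fold lower. The plasma proteins did so too, with HPX 1.37-fold higher and CP 1.38-fold lower. No member reached a 2-fold difference (0 of 9). The median difference of the members was -0.158 on the log2 scale, beside -0.006 for all genes, and 7 of the 9 differences were below 0.

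**Figure D1:**
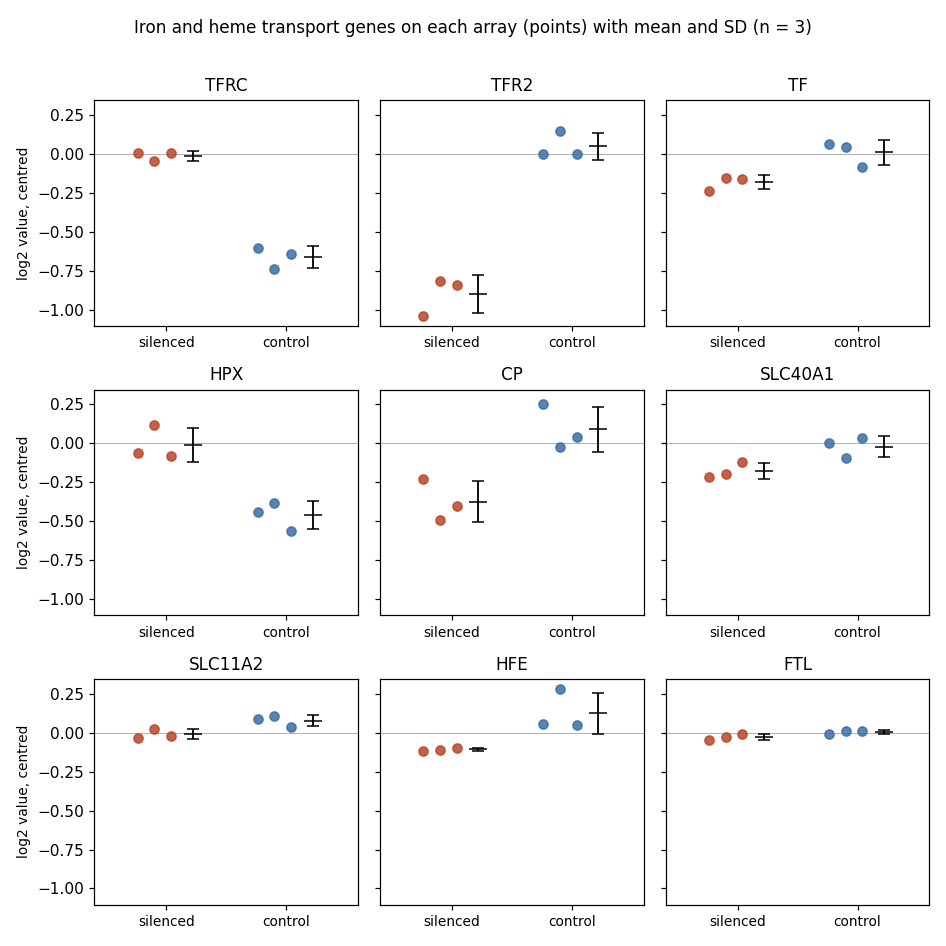
Log2 value of each measured member on each array (vertical axis, centred per probe set and averaged over a gene's probe sets), arrays labelled silenced on the left of each panel and control arrays on the right. Points are arrays, and the black marks give the mean and SD of 3 arrays. TFRC and HPX lie higher, and TFR2 and CP lower, in the arrays labelled silenced, with no overlap; the panels of SLC11A2 and FTL lie close to 0 in both groups.

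TFRC, the receptor that brings transferrin into most cells, had 0.005, -0.048 and 0.004 in the arrays labelled silenced and -0.602, -0.738 and -0.64 in the control arrays. All 3 arrays labelled silenced lay above all control arrays, near the probe sets' baseline, while the control arrays lay far below it. The means were -0.013 ± 0.0305 and -0.66 ± 0.0701 (SD, n = 3 each), a rise of 0.65 (SE 0.058, 95% interval 0.52 to 0.78, limma adjusted p = 0.00014). The size of this difference exceeded that of 98.1% of all genes. Its 3 probe sets all passed, with differences of 0.63, 0.75 and 0.56, so the rise did not rest on 1 of them. The first, ending in a plain _at, held exactly 0 on silenced arrays 1 and 3. The last, ending in _s_at, held exactly 0 on silenced array 2. The tied zeros of the first can make the silenced group look tighter than it may be. Among single probe sets, 10.7% of all 49293 passed.

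TFR2, the liver's second transferrin receptor and iron sensor, moved the other way. Its values were -1.037, -0.818 and -0.839 in the arrays labelled silenced, against 0, 0.147 and 0 in the control arrays. The gap between the groups was several times the range within either. TFR2 fell by 0.95 (SE 0.076, 95% interval -1.12 to -0.78, limma adjusted p = 8.2e-05), the largest difference among the members and larger than that of 99.3% of all genes. It was measured by 1 probe set, which held exactly 0 on control arrays 1 and 3. Exact zeros are common in the deposited table, with 17% to 21.1% of probe sets per array, and tied zeros make a group look tighter than it may be.

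TF, the ligand of both receptors, had -0.235, -0.153 and -0.16 in the arrays labelled silenced and 0.064, 0.046 and -0.081 in the control arrays. The groups did not overlap, but the difference of -0.19 did not pass (SE 0.061, 95% interval -0.33 to -0.05, limma adjusted p = 0.075). All 4 of its probe sets had negative differences, from -0.36 to -0.12. Only 1 of them passed, at -0.36 (limma adjusted p = 0.02). That call was lost without any 1 of the 3 silenced arrays and without control array 1 or 2, where the change lay between -0.37 and -0.32.

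HFE, the MHC-like protein that binds both transferrin receptors, had -0.116, -0.109 and -0.096 in the arrays labelled silenced and 0.054, 0.279 and 0.047 in the control arrays. The groups did not overlap, and control array 2 stood above the other control arrays. The difference of -0.23 did not pass (SE 0.071, 95% interval -0.40 to -0.07, limma adjusted p = 0.066). All 9 probe sets of HFE had negative differences, from -0.49 to -0.02, and the lowest of them passed, a probe set ending in _x_at (limma adjusted p = 0.0083).

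HPX, which binds heme in plasma and hands it to the receptor LRP1, had -0.059, 0.117 and -0.084 in the arrays labelled silenced and -0.438, -0.381 and -0.562 in the control arrays. Every array labelled silenced lay above every control array. HPX rose by 0.45 (SE 0.074, 95% interval 0.28 to 0.62, limma adjusted p = 0.004). Its 3 probe sets disagreed. Those ending in _a_at rose by 0.75 and 0.74 (limma adjusted p = 0.00063 and 0.0015). The remaining one, ending in a plain _at, had a difference of -0.13 with a 95% interval of -0.39 to 0.12 (limma adjusted p = 0.55), so the mean over the 3 is smaller than the rise in the other two. LRP1 itself, named after its value was seen, had a difference of -0.14 (limma adjusted p = 0.14).

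CP, the copper-bearing ferroxidase that readies iron for transferrin, had -0.228, -0.489 and -0.404 in the arrays labelled silenced and 0.254, -0.025 and 0.042 in the control arrays. The groups did not overlap, and both varied more than those of TFRC, with means of -0.374 ± 0.133 and 0.09 ± 0.146 (SD, n = 3 each). CP fell by 0.46 (SE 0.091, 95% interval -0.67 to -0.26, limma adjusted p = 0.0098). All 4 probe sets had negative differences, from -0.55 to -0.33. The lowest 2, at -0.55 and -0.54, passed (limma adjusted p = 0.0083 and 0.0086).

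SLC40A1, ferroportin, the only known iron exporter of mammalian cells, had -0.218, -0.196 and -0.121 in the arrays labelled silenced and 0, -0.095 and 0.034 in the control arrays. Its groups did not overlap, yet the closest arrays were near each other. The difference of -0.16 did not pass (SE 0.059, 95% interval -0.29 to -0.02, limma adjusted p = 0.13), and neither of its 2 probe sets did, at -0.22 and -0.09.

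SLC11A2, also known as DMT1, had -0.036, 0.024 and -0.018 in the arrays labelled silenced and 0.086, 0.107 and 0.038 in the control arrays. The difference of -0.09 did not pass (SE 0.053, 95% interval -0.21 to 0.03, limma adjusted p = 0.38). Its 6 probe sets spread from -0.32 to 0.16, with 4 below and 2 above 0. The lowest passed at -0.32 (limma adjusted p = 0.02). That call was lost without silenced array 1 or 2 or any 1 of the 3 control arrays, where the change lay between -0.33 and -0.27.

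FTL, the ferritin light chain, had the smallest difference of the members. Its values were -0.047, -0.03 and -0.006 in the arrays labelled silenced and -0.011, 0.008 and 0.012 in the control arrays, which overlapped. The difference of -0.03 did not pass (SE 0.050, limma adjusted p = 0.79), and its 95% interval of -0.14 to 0.08 corresponds to a ratio between 0.904 and 1.06. All 8 probe sets lay between -0.05 and -0.02. All of them end in _s_at or _x_at, a mark of probes that also match other transcripts, and FTL has many processed pseudogenes, so its value is uncertain.

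**Figure D2:**
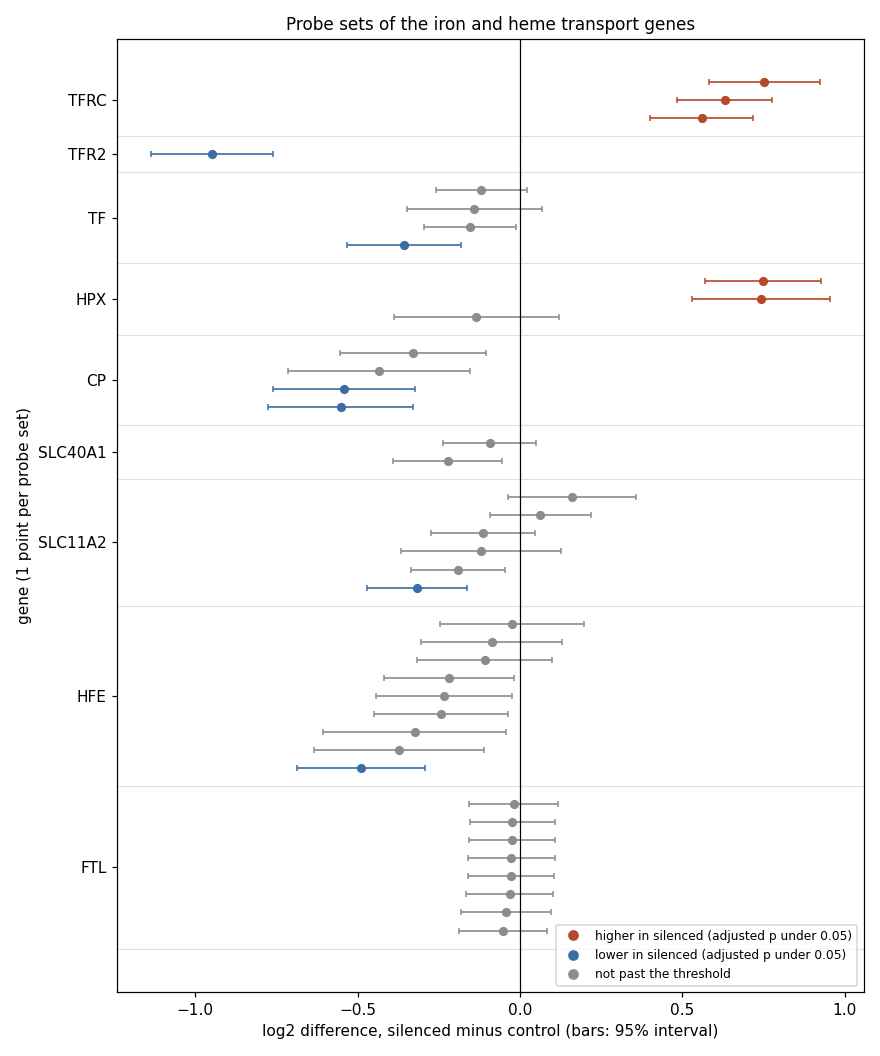
Log2 difference, arrays labelled silenced minus control arrays (horizontal axis), of each of the 40 probe sets, grouped by gene. Points are single probe sets, bars are 95% intervals from limma, and colour marks an adjusted p under 0.05. The 3 probe sets of TFRC lie together above 0, those of TF, HFE and CP all lie below 0, and HPX has 2 probe sets near 0.74 and 1 just below 0.

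Of the 40 probe sets 11 passed, 27.5% of them beside 10.7% of all probe sets, with 5 higher (beside 5.82% of all) and 6 lower (beside 4.85% of all). None of the genes had probe sets that passed in opposite directions (0 of 9). Only TFRC, CP and HPX had more than 1 that passed, so opposite calls were not possible for the others. HPX and SLC11A2 had differences on both sides of 0. In 23 of the 40 (57.5%) the groups did not overlap, beside 26.7% of all probe sets. At the level of genes this held for 8 of the 9 (88.9%), beside 29.3% of all genes. Only 5 of the 40 names end in a plain _at. A further 19 end in _a_at, which marks probes shared by transcripts of the same gene, and 16 in _s_at or _x_at. With the last kind left out, an alternative chosen after seeing the data, TFRC, HPX, TFR2 and CP were again the 4 genes that passed, of 8 with a value.

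Hepcidin (HAMP), the hormone that makes cells degrade ferroportin, was higher in the arrays labelled silenced, with -0.043, -0.031 and 0.059 against -0.743, -0.61 and -0.713 in the control arrays. The groups lay far apart, and HAMP rose by 0.68 (SE 0.060, limma adjusted p = 0.00014). Genes that control hepcidin moved in both directions. Of 17 measured genes of the hepcidin pathway 3 were higher, 4 lower and 10 did not pass, so 41.2% passed beside 13.3% of all genes, with a median difference of -0.024. SMAD1, which carries the signal of bone morphogenetic proteins to the HAMP gene, rose by 0.66 (SE 0.055, limma adjusted p = 0.00011). HJV, hemojuvelin, a coreceptor for that signal, fell by 0.47 (SE 0.086, limma adjusted p = 0.0065).

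The other 4 of these 7 genes had weaker calls and are named after their values were seen. BMP6, the ligand that reports iron load in the liver, fell by 0.31, SMAD5 fell by 0.40 and the inhibitor SMAD7 fell by 0.25. IL6R, a receptor chain for interleukin 6, rose by 0.20. Leaving out 1 array ended each of these calls; here and below, a range in parentheses after a lost call covers all 6 such fits. This happened for BMP6 without any 1 silenced array or control array 1 or 2 (-0.39 to -0.26) and for SMAD5 without any 1 silenced array or control array 1 or 3 (-0.52 to -0.31). SMAD7 lost its call without any 1 silenced array or control array 2 or 3 (-0.30 to -0.21), and IL6R without any 1 of the 6 arrays (0.17 to 0.23). IL6R turned to -0.0115 without probe sets ending in _s_at or _x_at. TMPRSS6, the protease that cleaves hemojuvelin, also named after its value was seen, did not pass, with a difference of -0.10 (limma adjusted p = 0.56).

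**Figure D3:**
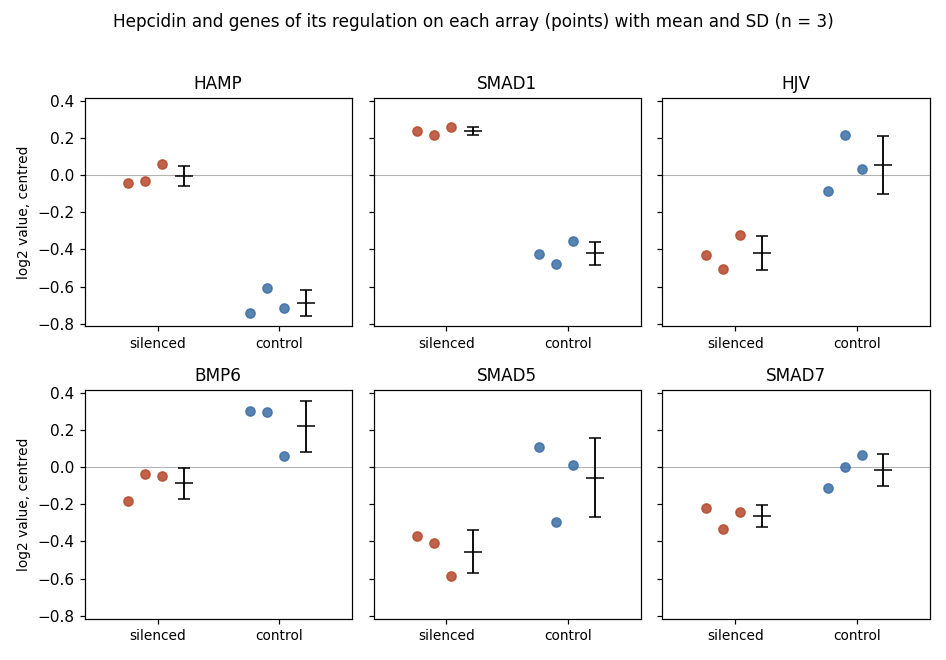
Log2 value (vertical axis, centred per probe set and averaged over a gene's probe sets) of hepcidin and 5 genes of its regulation on each array, arrays labelled silenced on the left and control arrays on the right. Points are arrays, and the black marks give the mean and SD of 3 arrays. HAMP and SMAD1 lie higher and HJV, BMP6, SMAD5 and SMAD7 lower in the arrays labelled silenced, where the SMAD5 groups come closest, at -0.37 and -0.296.

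Among 17 other genes of iron import, reduction and release, 5 were higher, 0 lower and 12 did not pass (median difference 0.029). Thus 29.4% passed, beside 13.3% of all genes. LCN2, lipocalin 2, which binds iron-loaded siderophores, rose by 0.75 (SE 0.093, limma adjusted p = 0.00089), with 0.278, 0.212 and 0.379 in the arrays labelled silenced and -0.249, -0.541 and -0.593 in the control arrays. Of the STEAP family, most of them metalloreductases, 3 of the 4 measured genes on this list rose, and STEAP4 did not pass, with a difference of 0.04 (limma adjusted p = 0.76). STEAP1 rose by 0.63 (SE 0.055, limma adjusted p = 0.00013), and STEAP2 by 0.42 (SE 0.103, limma adjusted p = 0.029). The value of STEAP1 is the mean of 2 unlike probe sets, of which the one of larger SD had 1.03. STEAP3, the endosomal ferrireductase of the transferrin cycle, rose by 0.36, and SLC25A37, the mitochondrial iron importer mitoferrin 1, by 0.33, both named, like STEAP4, after their values were seen. STEAP2 lost its call without any 1 silenced array or control array 2 or 3 (0.33 to 0.54). STEAP3 lost its call without silenced array 3 or control array 1 or 2 (0.28 to 0.41).

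Of 9 measured genes of iron-responsive regulation and ferritin turnover 1 was higher, 1 lower and 7 did not pass (median 0.031). Thus 22.2% passed, beside 13.3% of all genes. ACO1, the cytosolic aconitase that becomes iron-regulatory protein 1 when it lacks its cluster, rose by 0.24 (SE 0.058, limma adjusted p = 0.024). PCBP1, a chaperone that delivers iron to ferritin, fell by 0.20 (SE 0.053, limma adjusted p = 0.037). PCBP1 rests on 1 probe set, which ends in _s_at or _x_at, so its value is uncertain. ACO1 lost its call without any 1 silenced array or control array 1 or 3 (0.21 to 0.28), and PCBP1 without any 1 silenced array or control array 2 or 3 (-0.22 to -0.18). Of 4 other measured messages with an iron-responsive element none passed (0%, beside 13.3% of all genes, median -0.003). So few genes cannot show a difference from that share.

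Of 13 measured genes that scavenge, export or break down heme and hemoglobin, 3 were higher, 3 lower and 7 did not pass (median -0.033). Thus 46.2% passed, beside 13.3% of all genes. HP, haptoglobin, which binds free hemoglobin as hemopexin binds heme, rose by 0.60 (SE 0.083, limma adjusted p = 0.0016), with 0.012, 0.034 and 0.174 in the arrays labelled silenced and -0.669, -0.375 and -0.525 in the control arrays. All 3 probe sets of HP end in _s_at or _x_at, so its value is uncertain. ABCG2, an efflux pump that also exports porphyrins, rose by 0.78 (SE 0.056, limma adjusted p = 4.5e-05), the largest difference among these 13 genes. That is the mean of 2 unlike probe sets, of which the one of larger SD had 1.13. BLVRB, a biliverdin reductase, fell by 0.48 (SE 0.081, limma adjusted p = 0.0044). The other 3 that passed are named after their values were seen: BLVRA, the other biliverdin reductase, fell by 0.37, the heme and folate carrier SLC46A1 fell by 0.25, and AMBP, whose product alpha-1-microglobulin binds heme, rose by 0.22. BLVRA lost its call without silenced array 2 (-0.44 to -0.31), SLC46A1 without any 1 silenced array or control array 2 or 3 (-0.31 to -0.21), and AMBP without any 1 of the 6 arrays (0.18 to 0.24). HMOX1, the inducible heme oxygenase that opens the heme ring, likewise named after its value was seen, did not pass, with a difference of -0.03 (95% interval -0.23 to 0.16, limma adjusted p = 0.88).

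Of 11 measured genes of heme synthesis 1 was higher, 3 lower and 7 did not pass (median -0.097). Thus 36.4% passed, beside 13.3% of all genes. ABCB10, a transporter of the inner mitochondrial membrane, fell by 0.43 (SE 0.080, limma adjusted p = 0.0074), and TMEM14C, which moves a porphyrin precursor into mitochondria, fell by 0.40 (SE 0.067, limma adjusted p = 0.0041). ALAS1, the first and rate-limiting enzyme in liver, fell by 0.29 and is named after its value was seen. UROS, uroporphyrinogen III synthase, rose by 0.29 (SE 0.070, limma adjusted p = 0.025). ALAS1 lost its call without silenced array 2 or control array 2 (-0.33 to -0.24), and UROS without silenced array 2 or 3 or control array 1 (0.23 to 0.33). ABCB10, TMEM14C and UROS had only probe sets ending in _s_at or _x_at, 1 each for ABCB10 and UROS, so their values are uncertain.

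Of 18 measured genes of iron-sulfur cluster assembly 1 was higher, 1 lower and 16 did not pass. That share of 11.1% was near the 13.3% of all genes. ISCA1, an assembly factor, fell by 0.34 (SE 0.064, limma adjusted p = 0.0081), and GLRX5, a mitochondrial glutaredoxin that carries clusters, rose by 0.30 (SE 0.068, limma adjusted p = 0.02). GLRX5 lost its call without silenced array 3 or control array 3 (0.24 to 0.34). The probe sets of ISCA1 all end in _s_at or _x_at, so its value is uncertain. Copper handling was examined because ceruloplasmin needs copper. Of its 12 genes 1 was higher, 1 lower and 10 did not pass (16.7% passed, median -0.09), again near the share of all genes. ATP7B, the pump that loads copper into ceruloplasmin in hepatocytes, rose by 0.50 (SE 0.053, limma adjusted p = 0.00038), while CP itself fell. The 3 probe sets of ATP7B differed in size. Their median gave 0.33 and the one of largest SD 0.97. SLC31A1, the copper importer, fell by 0.31 (SE 0.077, limma adjusted p = 0.03), and lost its call without any 1 silenced array or control array 2 or 3 (-0.39 to -0.25).

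**Figure D4:**
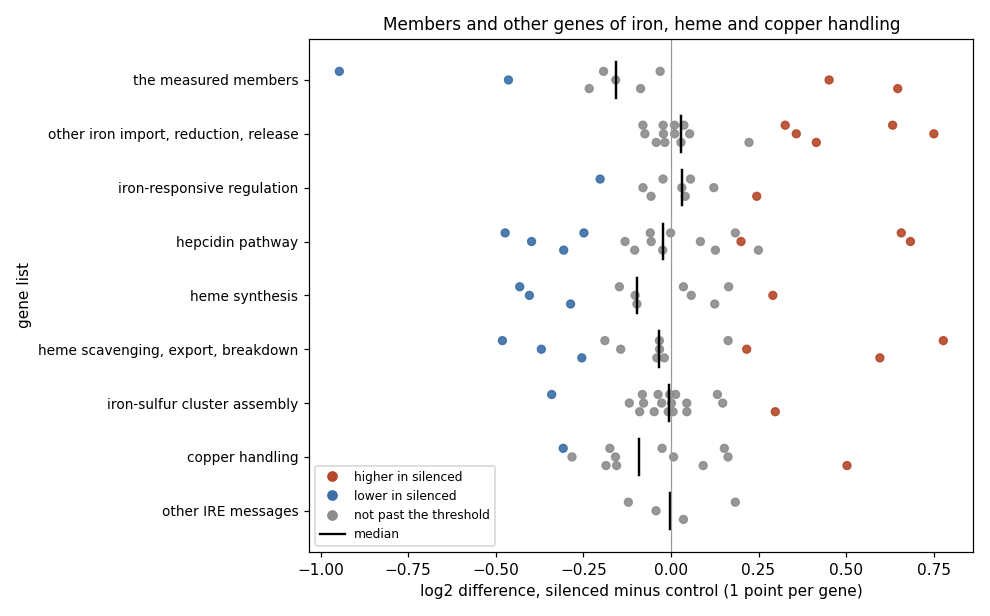
Log2 difference, arrays labelled silenced minus control arrays (horizontal axis), of the measured members and of 8 lists of other genes of iron, heme and copper handling (vertical axis). Points are genes, colour marks an adjusted p under 0.05, and the black line is the median of each list. The medians of the 8 other lists lie between -0.097 and 0.031, while single genes of those lists reach from -0.48 to 0.78. Among the members, TFR2 lies lowest, at -0.95.

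Over these 8 lists 100 genes were measured, of which 15 were higher, 13 lower and 72 did not pass (median -0.018). Thus 28% passed, beside 13.3% of all genes. Changes therefore ran in both directions, as among the members.

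By their values on the 6 arrays, the genes most like TFRC among the others that rose were DPYD, the enzyme that degrades pyrimidines, CPM, a membrane carboxypeptidase, and ABCG2, each with a Pearson r of at least 0.9985. Those most like TFR2 among the others that fell were GPC4, a glypican, PRAG1 and LGALS3BP, with r of 0.9993, 0.9979 and 0.9965. With 6 arrays in 2 groups such values are common: 545 of the 1293 candidates for TFRC and 432 of the 1121 for TFR2 had an r above 0.95.

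TF, CP, HPX and HAMP are products of hepatocytes, so hepatocyte markers are given beside them. Of 12 measured markers 7 were higher, 0 lower and 5 did not pass (median 0.206). Thus 58.3% passed, beside 13.3% of all genes. APOA1, the main protein of high-density lipoprotein, rose by 1.14, and the fibrinogen chains FGG and FGA rose by 0.99 and 0.40. The probe sets of APOA1 and FGG all end in _s_at or _x_at, so both values are uncertain. Albumin (ALB), named after its value was seen, did not pass, with a difference of 0.16 (limma adjusted p = 0.1). TF, CP and TFR2, also genes of hepatocytes, had negative differences. Of 14 markers of other cell types 0 were higher, 3 lower and 11 did not pass (21.4% passed, beside 13.3% of all genes, median -0.027). Those 3 were the epithelial and biliary genes EPCAM (-0.46), KRT7 (-0.40) and SOX9 (-0.31). EPCAM lost its call without silenced array 1 or 2 or control array 2 or 3 (-0.56 to -0.35), and SOX9 without any 1 silenced array or control array 2 or 3 (-0.40 to -0.26). The part of these markers in the differences of the members was not tested, and whether a marker was present or absent cannot be read from centred values.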

How the data were processed

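Total RNA was extracted with Trizol and labelled with biotin by the Affymetrix procedure, per the labels' protocols. The deposited table holds log2 values of 49395 probe sets on 6 arrays that the authors made with RMA, per the submitters' processing notes; its version is not given in the sources used here. RMA as usually run corrects background, normalises by quantiles and summarises probes. The values lie around 0, so they had been centred per probe set; this and the log base were inferred from the values and RMA's usual output. Centring cancels in differences. It also means that a filter on dim probes could not be applied. The number of arrays, 3 a group, limits the precision.

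The 102 control probe sets were left out. A symbol was taken from 44988 probe sets with 1 gene symbol in the platform annotation; 1832 had several and 2473 none here. The probe sets of each of 18132 genes were averaged. Group differences were fitted over all genes, and over all probe sets, with limma 3.58.1 (lmFit and eBayes, R 4.3.3) with Benjamini-Hochberg adjustment; a call is an adjusted p under 0.05. The script was tested on simulated data. All 10 members are named. Of each list, the 3 largest changes that passed are named, as are KCNN4 and, for the members with the largest rise and fall, the 3 genes most alike in pattern; the text says where others were added. The members and lists were chosen with earlier results of these data known.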

Additional observations from a re-analysis of the deposited data

How the results depend on the processing

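TFRC, HPX, TFR2 and CP kept direction and call in all 6 fits that left out 1 array (TFRC 0.61 to 0.68, HPX 0.39 to 0.49, TFR2 -0.99 to -0.88, CP -0.54 to -0.38 on the log2 scale), with quantile normalisation, robust eBayes and the median of the probe sets. The quantile normalisation was run on the centred values, and RMA usually includes that step already. It is thus no independent check of the normalisation. With the probe set of largest SD per gene, 7 members passed, 5 of them lower, TF (-0.36), HFE (-0.49) and SLC11A2 (-0.32) being added. That SD was taken over all 6 arrays and so includes the difference between the groups. The choice therefore favours probe sets that differ, and these added calls are not independent of it. With names ending in a plain _at only, 4 members had a value and 1 passed (TFRC, so 1 higher and 0 lower), 1 member probe set passed of 5, and 565 of 8354 genes passed. HPX then had -0.13, the value of its 1 probe set left, and SLC11A2 had 0.019. Without probe sets at exactly 0 on 2 or more arrays TFR2 had no value, which left 1 lower member. At an adjusted p under 0.01, 1303 genes passed in all. Leaving out 1 array gave 9 to 10 member probe sets and 1641 to 2289 genes.

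KCNN4 turned to 0.021 with the probe set of largest SD and to 0.0014 with quantile normalisation, and lay between -0.0445 and 0.0548 when 1 array was left out. Over the same fits HMOX1 lay between -0.135 and 0.0337, 1 HFE probe set ending in _x_at between -0.1325 and 0.0341, and 1 ending in _a_at between -0.1699 and 0.0109. IL6R had -0.0115 without probe sets ending in _s_at or _x_at, an alternative chosen after seeing the data. Of 43 named genes with a call, 26 kept it whichever array was left out. The replicate numbers are shared by the groups, and the labels do not say whether they pair the arrays. The deviations of same-numbered arrays correlated at -0.036, -0.058 and -0.029. Of the 3 arrays labelled silenced, 0 were closest to the control array of their own number. No pairing was thus seen, but so few arrays cannot exclude it. With the replicate block 4 member genes, 14 member probe sets and 2065 genes passed. Signal over background is unknown for these values.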
